A study of Homo sapiens with 2 samples.

Results

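The genes described here encode the translation initiation and elongation factors of human stem-cell-derived beta cells. They are all genes with a probe whose single annotation symbol starts with EIF or EEF, without the EIF2AK kinase genes and without pseudogenes. The rule took 104 probes of 63 genes, out of 30113 probes of 20046 named genes on the array, with 51 initiation factor genes (EIF symbols) and 12 elongation factor genes (EEF symbols). EIF1AY lies on the Y chromosome and is counted as a member without being analysed, which leaves 50 initiation factor genes and 102 probes in all. The symbols also bring in regulators and enzymes such as the eIF4E-binding proteins and the eEF1A methyltransferases, and EIF3J-DT, a noncoding transcript that starts next to EIF3J.

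Messenger RNA levels were read on 2 Illumina bead arrays, 1 for each of 2 samples of a single group. The samples were HUES8 cells, a human embryonic stem cell line, grown in suspension, carried through directed differentiation to stage 6 and sorted for Nkx6.1 and insulin protein, after which RNA was taken from the fixed cells by MARIS. They are biological replicates of 1 cell line, so they carry no information on other lines or donors, and no control group was analysed here. Of 6 beta-cell markers, 5 were above background on both arrays, and NKX6-1, whose protein was a sorting marker, had intensities of 78.9 and -4.24 on replicates 1 and 2. The alpha-cell hormone gene GCG had 4606 and 6346 and the delta-cell hormone gene SST 1924 and 3028 on replicates 1 and 2. The alpha-cell marker IRX2 had 138 and 170, and the delta-cell marker HHEX had 5.33 and 28.1 and passed the background floor on replicate 2 alone. None of the 3 stem-cell, 3 exocrine, 2 endothelial and 1 blood markers passed on both arrays. The stem-cell marker POU5F1 (18.4) and the exocrine marker CPA1 (22.2) passed on replicate 1 alone.

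Initiation factors bring the ribosome and the first transfer RNA to the start codon of a messenger RNA. The eIF2 complex carries the initiator transfer RNA and is recharged by eIF2B, eIF3 holds the small ribosomal subunit, and the eIF4 group binds and unwinds the capped end of the message. Elongation factors then drive the cycle that adds each amino acid: eEF1A delivers the charged transfer RNA, the eEF1B complex recharges eEF1A with GTP, and eEF2 moves the ribosome along by 1 codon. In insulin-secreting cells protein synthesis is known to change with glucose, and phosphorylation of eIF2 is a known brake on it. Many of these factors are themselves encoded by TOP messages, which begin with a cytosine and an unbroken run of pyrimidines and whose translation is under the control of the kinase mTOR.

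Some of the factors carried this signature at their annotated start. A start was counted as TOP-like if the first base was C and at least the 4 next bases were C or T, in the RefSeq promoter table of GRCh38.p14, which held 48 of the 62 analysed genes. A TOP-like start was found in 12 of the 48 (25%), against 6.35% of 14437 measured genes with an entry. A gene counted if any of its entries matched. Of all 22198 protein-coding promoter entries 4.54% matched, a share counted by entry and not by gene. By class it was 3 of 7 elongation factor genes and 9 of 41 initiation factor genes, beside 44 of 63 cytosolic ribosomal protein genes (69.8%). The sequences below run from 14 bases before the annotated start and are 30 bases long. They are shown because they are the elongation factor starts with the run and a choice of initiation factor starts with it, and EEF1G is added as the elongation factor with the largest difference between the replicates and no run. Capitals mark the pyrimidine run.
EEF1A1: tcgccgtgaacgttCTTTTTCgcaacgggt
EEF1B2: cggtctcttcgggtCCTTTTTCCTCTCTTC
EEF2: ttgacgtcagcgttCTCTTCCgccgtcgtc
EEF1G: ctcccgggcggcttactttgcggcagcgcc
EIF3D: cgcgcgcatgtttcCTCTTTTCCTggtttc
EIF3F: tccgcttccgcctcCTTCTTTCTCgacaag
EIF3M: cgcggcccagttccCTTTTCCggtcggcgt
EIF4A2: ttgggcgccgctgtCTTTTCagtcgggcgc
EIF4B: tgcctcatccgggtCTTTTgcgttctcttt
The windows lie at chr6:73521017-73521046 on the minus strand (EEF1A1), chr2:206159881-206159910 on the plus strand (EEF1B2), chr19:3985448-3985477 on the minus strand (EEF2), chr11:62573876-62573905 on the minus strand (EEF1G), chr22:36529151-36529180 on the minus strand (EIF3D), chr11:7987323-7987352 on the plus strand (EIF3F), chr11:32583817-32583846 on the plus strand (EIF3M), chr3:186783563-186783592 on the plus strand (EIF4A2) and chr12:53006442-53006471 on the plus strand (EIF4B). The run was longest in EEF1B2, with 16 pyrimidines, and shortest in EIF4B, with 5. The start that a cell uses can differ from the annotated one by a few bases, so a gene without a match here may still give TOP messages. The 6 letters CCGGAA, the core bound by ETS transcription factors, occurred on either strand of the windows of 300 bases (250 bases before the start and 50 after) of 20 of the 48 genes (41.7%), against 27.2% of the measured genes.

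Most factors were detected by at least 1 probe. The background floor of each array was the 95th percentile of its olfactory receptor probes, genes that few cells use (18.01 on replicate 1 and 15.9 on replicate 2), and a gene counted as above background when at least 1 probe exceeded the floor on both arrays. By this rule 44 of 50 initiation factor genes (88.0%) and 10 of 12 elongation factor genes (83.3%) were above background, beside 46.9% of all named genes and 70 of 75 cytosolic ribosomal protein genes (93.3%). In sorted cells measured in bulk, fewer cells that use a gene and less RNA per cell cannot be told apart. On replicate 1 alone 45 initiation and 10 elongation factor genes passed, beside 51.8% of named genes, and on replicate 2 alone 44 and 11, beside 54.8%. When every probe of a gene had to pass on both arrays, 34 initiation and 7 elongation factor genes remained, beside 34.1% of named genes. Intensities below are normalized values on a linear scale, given for replicate 1 and then replicate 2 at the brightest probe of the gene unless a probe is specified, and they are not compared between genes because brightness also depends on the probe.

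The elongation factor gene EEF1G had the largest difference between the replicates of all 54 members above background. A gene was counted as different if its brightest probe differed by 2-fold or more. Of the 10 elongation factor genes above background, 3 were lower in replicate 2 by that measure and none was higher, beside 10.9% and 13.5% of the 9393 named genes above background. Each of the 3 was lower by 4-fold or more, as were 2.67% of named genes. EEF1G, which encodes the gamma subunit of eEF1B that anchors the complex, had 4212 and 139, a 30.3-fold difference (-4.92 on the log2 scale). EEF1D, which encodes the delta subunit, a GTP exchange factor, had 521 and 108 (4.82-fold), and its other probe above background had 195 and 25.4. EEF1A2, the form of eEF1A known from muscle and neurons, had 2540.3 and 628 (4.04-fold). For each of these genes replicate 2 was the low array. EEF1G and EEF1D are among the members with near copies elsewhere in the genome, and without such members the count of lower elongation factor genes went from 3 to 1. EEF1G and EEF1A2 had 1 probe each, and the last of the 3 EEF1D probes stayed under the floor on both arrays (-1.86 and -1.89).

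EEF1A1 and EEF1B2, the other eEF1 subunits, gave different answers at different probes. EEF1A1, the widely expressed form of eEF1A, had 15284 and 14034 at its brightest probe, a difference of -0.12 on the log2 scale. At 2 further probes it had 10745 and 2009, and 10589 and 2602, which are differences of -2.42 and -2.02, and at the dimmest it had 292 and 176. All 4 probes were thus lower in replicate 2, but by amounts from 1.09-fold to over 5-fold. The brightest probe lay near the top of the intensity scale, which ended at 18514. EEF1B2, the exchange factor subunit that recharges eEF1A, had 3928 and 3335 at its brightest probe and 2937 and 3604 at another, so that these probes differed in sign. Its dimmer probes had 172 and 63.7, 197 and 17.7, and 27.9 and 46.5. Probe differences of EEF1B2 spanned 4.21 on the log2 scale, from -3.47 to 0.74. EEF1A1 and EEF1B2 have processed copies elsewhere in the genome, and how far these probes report such copies or separate transcripts was not tested.

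EEF2, which encodes the translocation factor, differed little, with 4184 and 3248 (-0.37 on the log2 scale). EEF2K, the kinase that inhibits eEF2, had 124 and 183 (0.55). The methyltransferase genes EEF1AKMT1 and EEF1AKMT3, whose products modify lysines of eEF1A, had 110.6 and 109.8, and 168.0 and 168.2. These pairs lay within 1.01-fold of each other. EEF2KMT, the lysine methyltransferase of eEF2, had 90.3 and 60.8 at its brightest probe and 45.4 and 65.2 at another. Its remaining probes, each above the floor on 1 array only, had 36.5 and 2.16, and 8.4 and 27.8, in opposite directions. EEF1AKMT2 passed the floor on replicate 2 alone (14.04 and 21.6), at least 1.20-fold higher there, and EEFSEC, the factor that delivers selenocysteine, had 0.651 and -4.09 and was not above background on either array. Over the 6 core elongation factor genes above background the differences at the brightest probes were all negative, with a median of -1.19. Of the 9393 named genes above background 3669 were negative, and other probes of EEF1B2 were positive. The 4 genes of modifying enzymes had a median of -0.004.

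**Figure D1:**
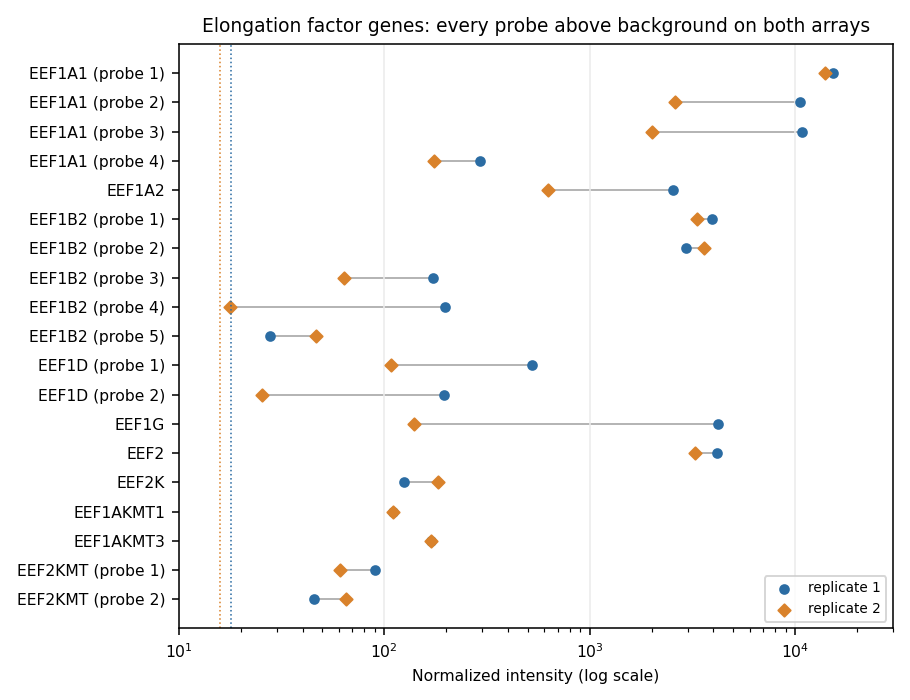
Normalized intensity (log axis) of every elongation factor probe above background on both arrays, with circles for replicate 1, diamonds for replicate 2, a line joining each pair and dotted lines for the background floor of each array in its colour; probes of 1 gene are numbered from the brightest. The longest line belongs to EEF1G (4212 and 139), and EEF1A1 probe 1 (15284 and 14034) moves far less than probes 2 and 3 of the same gene.

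Among the initiation factors the eIF2 and eIF2B genes were detected without exception and stayed within 2-fold. Of all named genes 46.9% were above background, and 7095 of those 9393 stayed within 2-fold. EIF2S1, EIF2S2 and EIF2S3 encode the alpha, beta and gamma subunits of eIF2, of which alpha is the one phosphorylated under stress. They had 50.3 and 80.2, 92.7 and 92.0, and 409.9 and 429.9. EIF2S1 was thus 0.67 higher in replicate 2 on the log2 scale and the others lay within 0.07. EIF2B2 (319 and 424), EIF2B3 (122 and 181), EIF2B4 (936 and 1235) and EIF2B5 (459 and 604), 4 of the 5 subunits of the exchange factor, were higher in replicate 2 by 0.40 to 0.56. EIF2B1, the alpha subunit, had 385 and 202 (-0.93), so it ran against the other 4 subunits and came close to the 2-fold limit. EIF2A and EIF2D, which encode factors that can bring initiator transfer RNA to the ribosome outside the usual eIF2 route, had 294 and 282, and 201 and 141.

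The genes for start-codon selection and a related gene also stayed within 2-fold. EIF1, whose product guards against wrong start codons, had 2057 and 1792, and its paralog EIF1B had 629.9 and 793. EIF1AX, which encodes eIF1A, had 97.0 and 109.3, and EIF1AD, a gene of a related nuclear protein, had 26.2 and 41.6. All 4 thus lay within 2-fold, as did 7095 of the 9393 named genes above background, and EIF1AD lay close to the floor.

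The eIF3 genes differed in how far they agreed between the replicates. Of 14 genes measured, 13 exceeded the floor on both arrays. Relative to replicate 1, 3 of them were lower by 2-fold or more in replicate 2 and none was higher by as much (23.1% and 0 of 13, beside 10.9% and 13.5% of named genes). These were EIF3B (2565 and 1032), EIF3G (840.1 and 246) and EIF3I (1095 and 535), lower by 2.48-fold, 3.42-fold and 2.05-fold. The b, g and i subunits are known to sit together as a module of eIF3, away from the octamer formed by subunits a, c, e, f, h, k, l and m. All 8 octamer genes lay within 2-fold, beside 7095 of the 9393 named genes above background. At the brightest probes 4 were higher and 4 lower in replicate 2, with a median difference of 0.01. This grouping was chosen after the values were seen. EIF3I fell just short of 2-fold when an offset of 50 was added before the log2 step (-0.97). EIF3B was lower at its next probe too (694 and 185), and at the last it had 138 on replicate 1 and 0.432, under the floor, on replicate 2.

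The octamer genes had EIF3E at 3019 and 2707, EIF3F at 1005 and 1053, EIF3H at 943 and 1162, EIF3K at 1035 and 1219.5, and EIF3A, the large scaffold subunit, at 598 and 529. EIF3L had 5429 and 5268 at its brightest probe (-0.04) and 2199 and 3013 at the other (0.45), so its direction depends on the probe. EIF3C had 43.9 and 79.6, the highest difference of the group (0.86), and its near-identical copy EIF3CL had -5.56 and 1.43 and was not above background on either array. How far the EIF3C probe also reports EIF3CL was not tested. EIF3M was the lowest octamer gene, with 487 and 333 (-0.55), and had 599 and 223 (-1.42) at its other probe. Outside both groups, EIF3D, a cap-binding subunit, had 1043 and 1449, and EIF3J, a loosely bound subunit, 103.2 and 103.8. The transcript EIF3J-DT had 11.5 and -4.75 and was not above background on either array.

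**Figure D2:**
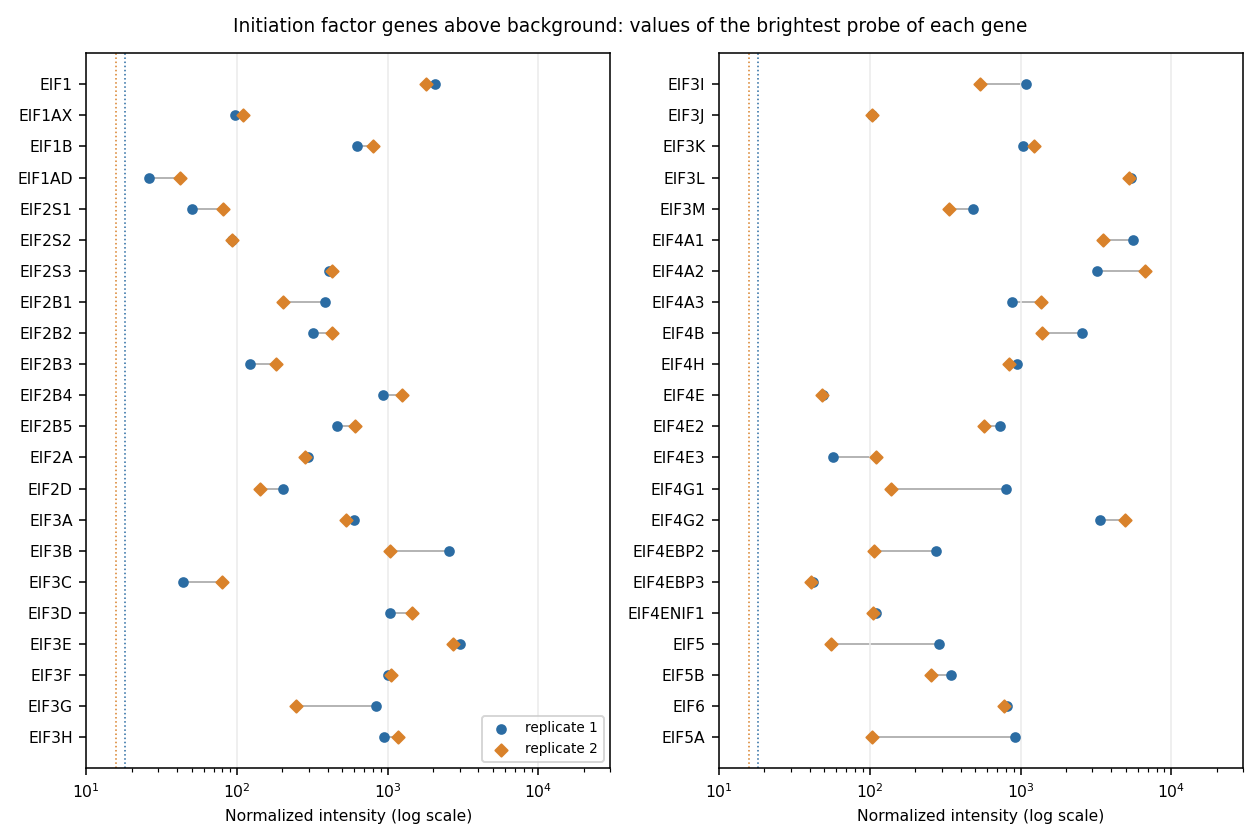
Normalized intensity (log axis) of the brightest probe of each of the 44 initiation factor genes above background, in the order of their complexes, with circles for replicate 1, diamonds for replicate 2, a line joining the pair and dotted lines for the background floor of each array in its colour. Most pairs lie close together, and long lines run towards lower values in replicate 2 at EIF4G1, EIF5, EIF5A and EIF3G.

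The cap-binding eIF4F group held differences in both directions. EIF4G1, the main scaffold that joins the cap-binding protein, the helicase and eIF3, had 804 and 137 at its brightest probe and 565 and 96.7 at another, which are differences of -2.55 at both. Replicate 2 was the low array at both, and 2 further probes of the gene were not above background on either array. EIF4G2, which encodes a scaffold that lacks the cap-binding protein's site, had 3352 and 4943, and 1626 and 1839 at its second probe. The scaffold genes thus pointed in opposite directions.

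The helicase genes EIF4A1 and EIF4A2 also pointed in opposite directions. EIF4A1 had 5589.8 and 3542 at its brightest probe (-0.66) and 1110.1 and 461 at the other (-1.27). EIF4A2, whose protein is a close paralog, had 3219 and 6699, 2.08-fold higher in replicate 2, and was the only member higher by 2-fold or more in these arrays. After the differences were centred on the median probe it was 0.91 higher on the log2 scale and under 2-fold. EIF4A3, a core protein of the exon junction complex rather than of cap binding, had 875 and 1367 (0.64). The helicase cofactor gene EIF4B had 2545 and 1382 (-0.88), and EIF4H, a related cofactor, had 944 and 836 at the probe for one transcript record and 689.6 and 234 at the probe for another, so its probes differed by 1.39 on the log2 scale.

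The cap-binding protein genes were less different. EIF4E had 48.6 and 47.9 at the single probe above background on both arrays, of 5 probes, and EIF4E2, a paralog linked to repression of translation, had 729 and 568. EIF4E3 had 57.3 and 110.0, a difference of 0.94, and EIF4E1B, known from oocytes, had 6.2 and 4.82 and was not above background on either array. Their inhibitors, the eIF4E-binding proteins that mTOR phosphorylates, were detected in 2 of 3 cases. EIF4EBP2 had 273 and 107, 2.56-fold lower in replicate 2, EIF4EBP3 had 42.2 and 40.9 at 1 of its 2 probes, and EIF4EBP1 had 36.2 and 15.1, the latter under the floor, and was at least 2.28-fold lower in replicate 2. EIF4ENIF1, the transporter of eIF4E, had 109.3 and 104.4. Among these binding proteins EIF4EBP1 and EIF4EBP2 were lower in replicate 2, and EIF4EBP3 and EIF4ENIF1 lay within 1.05-fold.

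Of the late-acting factors, EIF5A and EIF5 were 2-fold or more lower in replicate 2. EIF5A encodes the factor that carries the modified amino acid hypusine and is known to act in elongation and termination despite its name. It had 915 and 103.2, 8.87-fold lower in replicate 2 (-3.15), at its single probe. The paralog EIF5A2 had 15.01 and 5.31 and, at another probe, 1.62 and 6.92, and the gene EIF5AL1, a near copy of EIF5A, had 7.08 and 7.66. None of these paralog probes was above background on either array. EIF5, the activator of GTP hydrolysis by eIF2, had 286 and 55.5 at its brightest probe (-2.37), 83.4 and 73.0 at another (-0.19) and 50.1 and 32.6 at the next (-0.62). With the median of these probes in place of the brightest, EIF5 fell under the 2-fold limit at -0.62. EIF5B, which joins the ribosomal subunits, had 348 and 256, and EIF6, which keeps them apart, had 815 and 773.

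Over the 44 initiation factor genes above background, 7 were 2-fold or more lower in replicate 2 (15.9%, beside 10.9% of named genes) and 1 was higher (2.27%, beside 13.5%). The median difference was -0.05 on the log2 scale, with 25 genes lower and 19 higher, and the elongation factor genes had a median of -0.30, with 8 lower and 2 higher. Of the 9393 named genes above background 3669 were lower and 5721 higher. The median named gene was 0.21 higher in replicate 2, so both medians lie further down relative to it. Without genes that have near copies the elongation factor median was -0.19. Among the 2043 named genes at least as bright as the median member, 8.22% were lower by at least 2-fold and 7.44% higher, and their median was 0.19. Members dimmer than that fall outside this set, and the shares of the brighter members alone were not computed. The 70 cytosolic ribosomal protein genes above background had 11 lower and 1 higher by 2-fold or more and a median of -0.11. With 1 array per replicate no test of any of these differences is possible, and no difference has a replicate check. The GCG and SST intensities were 1.38-fold and 1.57-fold higher in replicate 2, and their part in the differences was not tested.

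**Figure D3:**
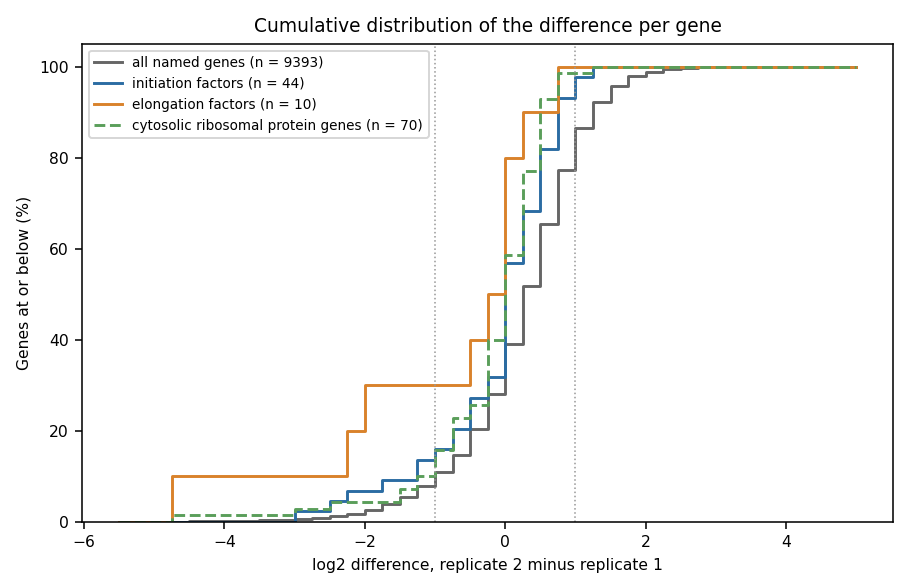
Percentage of genes at or below each log2 difference (replicate 2 minus replicate 1), for all 9393 named genes above background, 44 initiation factor genes, 10 elongation factor genes and 70 cytosolic ribosomal protein genes, in steps of 0.25, with dotted lines at 2-fold. At the lower 2-fold line the curves stand at 10.9%, 15.9%, 30% and 15.7%.

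Other properties of the 10 genes that were 2-fold or more lower were then set beside those of the remaining 44. Of the 10, 7 had a promoter entry, and EEF1A2, EEF1D and EIF3G could not be scored. At the brightest probe none of the 7 had a TOP-like start, although EEF1A1, which has one, would be 2-fold or more lower with the median of its probes (-1.38) and so would EIF4B after median centring (-1.03). The 12 genes with that start had differences from -0.88 (EIF4B) to 1.06 (EIF4A2) and a median of -0.09, whereas 7 of the 31 genes with another start were 2-fold or more lower (22.6%), with a median of -0.05. Over all named genes above background with a promoter entry the corresponding shares were 11.9% of 605 genes with a TOP-like start and 10.6% of 6980 with another, which lie close to each other. The promoter GC content had a median of 64.3% both in the 7 lower genes with an entry and in the other 36, although Spearman's rho between the difference and the GC content was -0.24 over those 43 members. Over all named genes the medians were 67.0% and 64.5%, and rho was -0.10. The genomic span of the gene had a median of 14 kb in the 10 lower genes and 20.4 kb in the other 44, and 17.8 kb and 29.7 kb in all named genes split in the same way. Spearman's rho between the difference and the span was 0.14 over 54 members and 0.16 over 9384 named genes, given as a description because genes on 1 pair of arrays are not independent. Chromosome 3 is given as an example, and other chromosomes were not set out. Its members above background had EIF4G1 at -2.55, EIF2A at -0.06, EIF1B at 0.33, EIF2B5 at 0.40, EIF4E3 at 0.94 and EIF4A2 at 1.06. Any part of chromosomal position in the differences was not tested.

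Agreement between probes of a gene set how far each value can be read. Of 14 members with several probes above background, 5 had probe differences that lay 2-fold or more apart, beside 31.5% of such named genes, and they were EEF1A1, EEF1B2, EEF2KMT, EIF4H and EIF5. In 3 members every probe above background was 2-fold or more lower in replicate 2, namely EIF3B, EIF4G1 and EEF1D, beside 3.74% of such named genes. EEF1G, EEF1A2, EIF5A, EIF3G, EIF3I and EIF4EBP2, the other genes lower by 2-fold or more apart from EIF5, rest on 1 probe each.

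**Figure D4:**
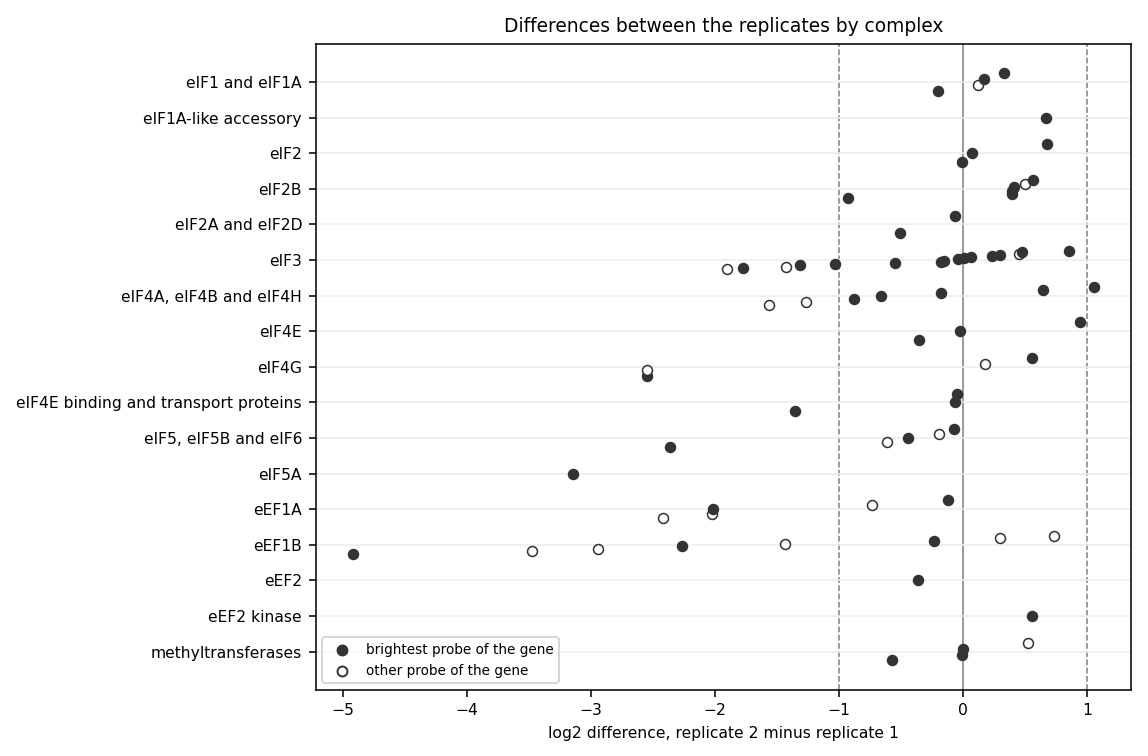
Log2 difference (replicate 2 minus replicate 1) of every member probe above background on both arrays, by complex, with filled points for the brightest probe of each gene, open points for its other probes and dashed lines at 2-fold. The eIF1 and eIF2 rows lie between the dashed lines, whereas the eEF1B row runs from -4.92 to 0.74.

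Other genes of the pathway, outside the rule, were described from 7 lists. Of 52 genes measured, 44 exceeded the floor (84.6%, beside 46.9% of named genes). In replicate 2, 3 of these were lower by at least 2-fold (6.82%, beside 10.9%) and 4 higher (9.09%, beside 13.5%). The 4 higher genes lay at 1.01 to 1.11 on the log2 scale, just past the limit. The median probe above background was itself 0.15 higher in replicate 2, and median centring was not run on these lists. All 6 genes for eIF2 kinases and phosphatase subunits were above background. EIF2AK1, the haem-regulated kinase, had 1309.7 and 1381, EIF2AK2, the kinase activated by double-stranded RNA, 250.3 and 379, and EIF2AK3, which encodes PERK, the kinase of the endoplasmic reticulum stress response, 53.7 and 110.1 (2.05-fold higher). The phosphatase subunit gene PPP1R15A had 159.7 and 152. The kinase and phosphatase genes other than EIF2AK3 thus stayed within 2-fold, as did 7095 of the 9393 named genes above background.

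In the list for mTOR and cap control 8 of 10 genes were above background. MTOR had 385 and 524, and the paired S6 kinase genes went apart, with RPS6KB1 at 381 and 765 (2.01-fold higher) and RPS6KB2 at 1087 and 266 (4.09-fold lower). MKNK1, which encodes a kinase of eIF4E, had 191 and 412 (2.16-fold higher). RPTOR had 29.5 and 15.0 and LARP1, whose product binds TOP messages, had -4.61 and -2.36, and neither passed on both arrays. Among 6 genes for poly(A)-binding proteins and their partners, 5 were above background and 2 of these were lower in replicate 2 by 2-fold or more, PABPC4 (835 and 274) and PABPC3 (85.2 and 24.3). PABPC1 had 2291 and 1395 at its brightest probe (-0.72), but its other probe had a difference of 0.69, so its direction depends on the probe.

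The remaining lists differed less. Of 8 termination and recycling genes, 7 were above background. All 7 lay within 2-fold, beside 7095 of the 9393 named genes above background, and 6 were higher in replicate 2, beside 5721. The release factor genes ETF1 and GSPT1 had 659 and 1132, and 1062 and 1041. The genes that modify eIF5A and eEF2 gave 7 of 8 above background, also within 2-fold, with the hypusine enzymes DHPS at 431 and 615 and DOHH at 55.4 and 50.4. These differences were 1.42-fold and 1.10-fold, beside 8.87-fold at EIF5A. Of 5 selenocysteine genes 3 were above background (60.0%, beside 46.9% of named genes), all within 2-fold. Mitochondrial factors were above background in 8 of 9 cases, with MTIF2 at 127 and 207, the mitochondrial elongation factor TUFM at 712 and 526, and GUF1 at 29.9 and 60.3 (2.02-fold higher), the only gene of that list beyond 2-fold.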

How the data were processed

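Both samples were hybridised to Illumina bead arrays. The authors deposited 1 normalized intensity per probe for each array, not log-transformed. GenomeStudio is named, per the submitters' processing notes, without a version, and the design text says that the arrays were normalized together with published ones. The deposited intensities reach below 0 (to -22.6) and their sorted values differ by at most 0.155 between the arrays, as background subtraction and quantile normalization would leave them. Neither step is described in the sources used here. No depth applies to arrays, and their number limits the precision.

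Gene symbols of probes came from the platform annotation in GEO. The floor came from 457 probes of 384 olfactory receptor genes. Values under the floor were set to it before log2 was taken, and a gene is shown by its brightest probe above background on both arrays. Where a probe passed on 1 array only, the fold is a bound against the higher of the other array's floor and the probe's own value. Every member may be named by the rule fixed for naming genes; of the other pathway lists, the first 3 measured members and those 2-fold or more different. PPP1R15A and LARP1 fall outside it and were named after their values were seen. The members and lists were chosen with earlier results of these data known. Alternatives were another floor, probe summary, centring, normalization, offset and choice of members. With 1 group of 2 arrays no test was made. Functions were tested on simulated data. Python 3.11.15, numpy 2.4.6, pandas 2.3.3 and matplotlib 3.10.9 were used.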

Additional observations from a re-analysis of the deposited data

How the results depend on the processing

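No paired analysis was possible because both arrays belong to 1 group. Of 78 recomputed counts and medians, 72 stayed within 1.5 times the reported count or, for medians, within 0.68 on the log2 scale. The limit for medians is the SD of the probe differences between the replicates (0.96) divided by the square root of 2. It is wide beside medians of -0.05 and -0.30. The initiation factor median of -0.20 after centring thus counted as unchanged. After median centring no initiation factor gene was 2-fold or more higher (0 against 1) and EIF4A2 dropped out. Without regulators and enzymes, 6 elongation factor genes were above background and their median difference was -1.19. Without genes that have near copies, 6 elongation factor genes were above background, 1 was 2-fold or more lower and 0 initiation factor genes were higher; fewer genes entered these counts by construction. With 1 array alone, 44 to 45 initiation and 10 to 11 elongation factor genes were above background. Of 11 genes beyond 2-fold, EIF3I, EIF4A2 and EIF5 each fell under it in 1 of 8 alternatives, and EEF1A1 (-1.38 with the median of its probes), EIF2B1 (-1.08 after centring) and EIF4B (-1.03 after centring) passed it in 1. The other floors and updated gene symbols left the differences of these genes unchanged. Quantile normalization hardly moved them, as the sorted values already differed by at most 0.155. For a gene with 1 probe above background the probe summary could not change the value either. Few alternatives could thus move a gene, and within this limit no gene beyond 2-fold changed sign. Signal near the floor limits genes such as EIF1AD, EIF4EBP3, EIF4E, EIF3C and EIF2S1.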
